A study of Mus musculus with 2 samples.

Results

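The 48 genes described here encode subunits of the receptors for glutamate, gamma-aminobutyric acid (GABA) and glycine, the fast transmitters of the retina. They were taken by gene symbol (Gria, Grid, Grik, Grin, Grm, Gabra, Gabrb, Gabrg, Gabrr, Gabrd, Gabre, Gabrq, Glra and Glrb) from the 31253 genes of a table of FPKM values (fragments scaled to transcript length and to sequencing depth, so that levels of different genes can be set side by side). The genes were picked by symbol and not by level, but this set was chosen with earlier results of these data known. It does not hold every gene of these families. Each group had 1 library. The mNRPC library came from mouse neural retinal progenitor cells of C57BL/6 mice at passage 24. By the study's methods these cells were grown from dissociated neural retina of adult mice (8 to 10 weeks old), on a Matrigel coating and in a chemically defined medium with N2, B27, bFGF (a fibroblast growth factor) and the GSK3 inhibitor CHIR99021. The retina library came from retina tissue of the same strain, and the sources used here give neither an age nor any pooling for this library. No genetic change or further treatment is named for either group. With 1 library per group there was no spread between replicates and no test, and every difference below compares these libraries only.

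Glutamate opens AMPA, kainate and NMDA receptors, which are tetrameric cation channels, and also acts on metabotropic receptors, which signal through G proteins. GABA-A receptors and glycine receptors are pentameric chloride channels of the Cys-loop family. In the retina, photoreceptors and bipolar cells release glutamate, while horizontal and amacrine cells are mostly inhibitory and use GABA or glycine. Subunit choice sets the kinetics, pharmacology and placement of each receptor, and most retinal neurons carry several types.

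The labels of the libraries were first set against marker genes. Of 11 rod markers, 11 were at least 2-fold lower in mNRPCs, and their summed level was 8.82 FPKM in mNRPCs against 22100 FPKM in retina. Of 8 neural progenitor markers, 7 were at least 2-fold higher in mNRPCs, with summed levels of 3932 and 247 FPKM. Of the mNRPC sum 2 genes made up 3510 FPKM, and the other 6 summed to 422 against 142 FPKM. Markers of bipolar cells (8 of 8 lower, summed level 6.94 against 724 FPKM) and ganglion cells (8 of 8 lower, 4.76 against 562 FPKM) moved with the receptor genes, as did 3 of 5 horizontal cell markers (0.360 against 56.7 FPKM). Lower too were 7 of 7 Müller glia (54.1 against 1937 FPKM), 7 of 7 cone (1.11 against 955) and 4 of 4 pigment epithelium markers (0.135 against 70.6), and 2 of 3 markers each of astrocytes and endothelium. Of 8 amacrine cell markers 5 were lower and 1 higher. Their summed level was 164 against 283 FPKM, but 2 genes, 1 of them also on the progenitor list, made up 154 FPKM in mNRPCs, and the other 6 summed to 10.1 against 175 FPKM. Listed at 0 in mNRPCs were 2 bipolar, 3 ganglion, 2 amacrine and 2 horizontal cell markers. Of 5 mesenchymal markers 1, Col3a1, was higher in mNRPCs (449.8 against 0.311 FPKM) and Lum was listed at 0 in both libraries. The part of cell composition in the receptor levels was not tested, and in bulk tissue fewer cells of a type and less RNA per cell cannot be told apart. The depth was estimated at 6.55e+06 fragments for mNRPCs and 5.06e+06 for retina.

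Receptor subunit genes were far lower in the cultured progenitors than in retina. Together they summed to 31.4 FPKM in mNRPCs and to 357 FPKM in retina, an 11.4-fold lower level. As a share of all FPKM this was 0.00509% against 0.0827%, which is 16.2-fold lower. On the log2(FPKM + 1) scale 27 of the 48 genes (56.3%) were at least 2-fold lower in mNRPCs, 1 was at least 2-fold higher and 20 lay between. Over all 31253 genes 13.2% were lower and 10.8% higher by the same rule. Of the 48 genes 33 reached 1 FPKM in at least 1 library, 28 of them in retina alone, and over the 13780 genes of that kind the shares were 30.0% lower and 24.5% higher. The median log2 ratio of mNRPC to retina over the 48 genes was −1.66, against 0 over all genes and −0.12 over the 13780.

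In retina 32 of the 48 genes (66.7%) reached 1 FPKM, compared with 40.4% of all genes. In mNRPCs only 5 (10.4%) did, compared with 35.4% of all genes. Grik5, Gabra2, Glrb and Gabre were among them, and Grik5, Gabra2 and Glrb alone held 75.7% of the summed receptor level of the culture. Of the 48 genes 27 (56.3%) were listed at 0 in mNRPCs, against 51.4% of all genes, and 5 (10.4%) in retina, against 45.4%. A further 4 were above 0 in mNRPCs but at or under 3 estimated fragments, the limit taken here for a detectable level, which left 17 genes above it. A value listed at 0 can also be a failed estimate, so no fold is given for these genes.

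**Figure D1:**
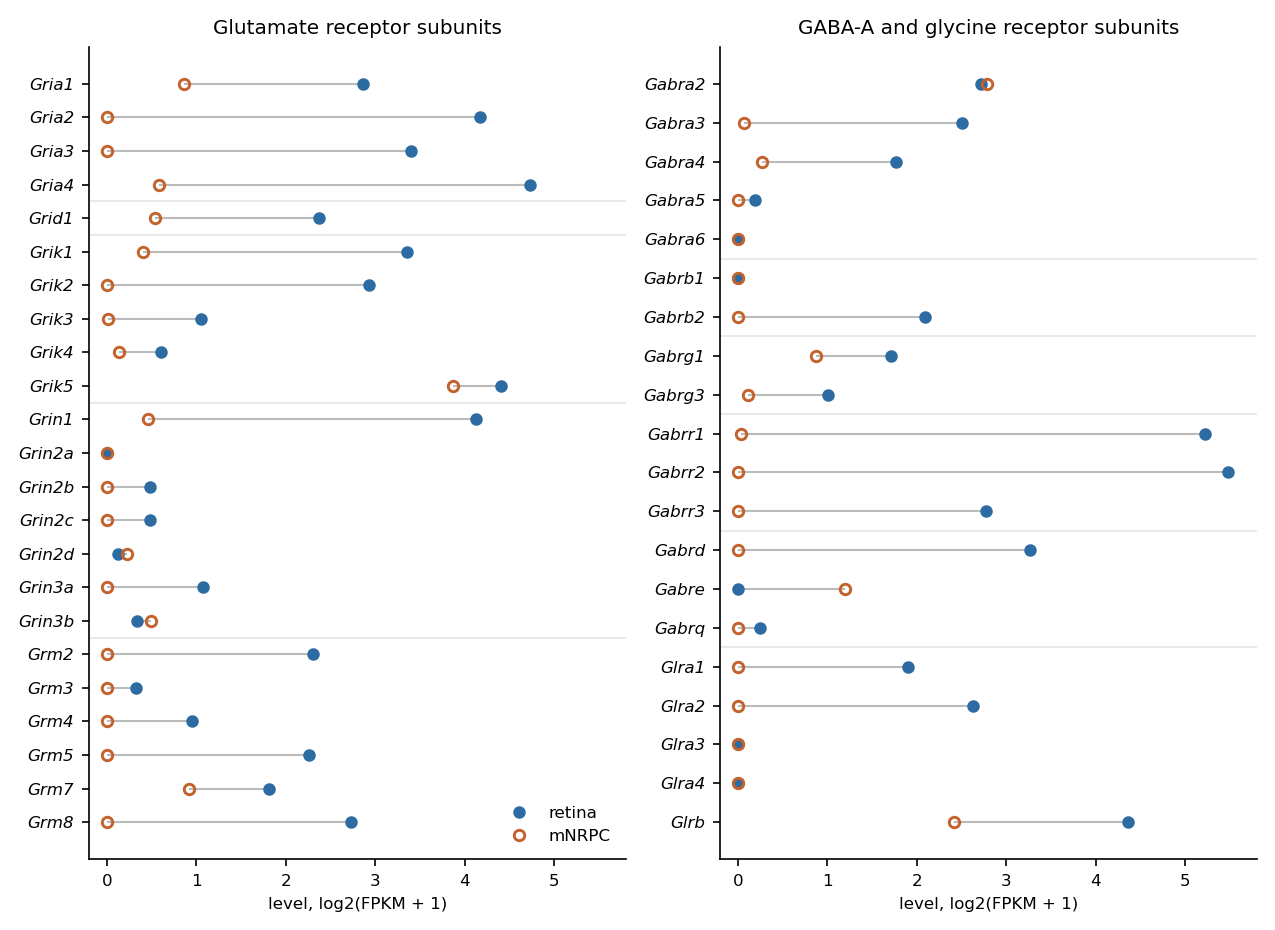
Level of 43 subunit genes in the mNRPC library (open circles) and the retina library (filled circles), in log2(FPKM + 1), with grey lines joining the values of a gene and pale lines between families. Most open circles lie near 0, while Grik5, Gabra2 and Glrb keep levels above 4 FPKM and Gabre is higher in mNRPCs.

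The promoters of 4 members are shown as contrasting cases. Gria2 and Gabrr2 were well expressed in retina and listed at 0 in mNRPCs. In the values as deposited, Grik5 and Gabra2 had levels within 2-fold in both. The sequences are those of RefSeq on GRCm38.p6, from 250 bases before to 50 bases after the start of the gene, on the strand of the gene. Promoters were found for 32 of the 48 genes (39 promoters). Capitals mark matches, on either strand, to 4 motifs: the core of the site of the repressor REST (AGCACC and GGACAG with a gap of 2 bases), the GC box GGGCGG, the sequence TAATCC bound by the photoreceptor factor CRX, and TATAAA.

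Gria2 promoter (chr3:80802786-80803085, minus strand): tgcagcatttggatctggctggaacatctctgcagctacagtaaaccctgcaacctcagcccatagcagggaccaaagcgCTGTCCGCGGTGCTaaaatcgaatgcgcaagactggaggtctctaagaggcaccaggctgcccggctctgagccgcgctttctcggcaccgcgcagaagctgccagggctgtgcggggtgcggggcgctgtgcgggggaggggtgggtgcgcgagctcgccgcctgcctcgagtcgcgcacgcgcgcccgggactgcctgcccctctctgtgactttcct

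Gabrr2 promoter (chr4:33062862-33063161, plus strand): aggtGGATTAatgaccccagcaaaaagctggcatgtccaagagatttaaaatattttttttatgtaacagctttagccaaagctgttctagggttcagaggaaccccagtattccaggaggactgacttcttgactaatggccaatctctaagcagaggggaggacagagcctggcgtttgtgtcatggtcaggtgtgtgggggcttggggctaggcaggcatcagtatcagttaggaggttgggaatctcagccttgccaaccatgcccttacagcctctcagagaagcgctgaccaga

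Grik5 promoter (chr7:25072320-25072619, minus strand): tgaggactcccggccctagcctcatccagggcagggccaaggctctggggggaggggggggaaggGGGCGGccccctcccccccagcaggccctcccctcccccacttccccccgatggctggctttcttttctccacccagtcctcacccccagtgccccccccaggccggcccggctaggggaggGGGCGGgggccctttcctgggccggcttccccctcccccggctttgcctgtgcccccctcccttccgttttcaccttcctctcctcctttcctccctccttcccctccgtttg

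Gabra2 promoter (chr5:71095800-71096099, minus strand): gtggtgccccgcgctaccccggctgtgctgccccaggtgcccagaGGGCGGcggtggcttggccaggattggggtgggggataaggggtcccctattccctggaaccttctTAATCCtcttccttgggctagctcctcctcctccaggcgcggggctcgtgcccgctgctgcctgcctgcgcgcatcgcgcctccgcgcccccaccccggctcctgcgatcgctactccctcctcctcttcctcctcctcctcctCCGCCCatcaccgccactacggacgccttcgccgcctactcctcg

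Gria2 was the 1 member with a match to the REST core, on the opposite strand from 170 to 157 bases before the start, and 0.0517% of 32851 promoters of this length hold such a match. The GC box stood in 20 of the 39 member promoters (51.3%) against 35.7% of all, among them those of Grik5 and Gabra2 but also those of Grin1, Gabrr1 and Grm8, which were lower in mNRPCs. TAATCC stood in the promoters of Gabrr2 and Gabra2 (5.13% of the member promoters against 7.06% of all) and TATAAA in 12.8% against 13.6%. CpG dinucleotides numbered 26 in the Gria2 window, 2 in that of Gabrr2, 10 in that of Grik5 and 25 in that of Gabra2, with a median of 11 over the member promoters and 7 over all. These letters are a description of the windows, and binding was not measured.

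AMPA receptors carry most fast excitation, and their 4 subunit genes, Gria1 to Gria4, were all at least 2-fold lower in mNRPCs. Their summed level was 1.32 FPKM in mNRPCs and 58.5 in retina. Gria4 had 0.495 FPKM in mNRPCs and 25.6 in retina, 51.8-fold lower (95% interval of the fold from counting error 32.1 to 89.6). On curated transcripts alone Gria4 was at 0.143 and 22.5 FPKM, 157-fold lower, so the size of its fold depends on predicted transcripts. Gria1 was at 0.822 and 6.27 FPKM, 7.63-fold lower (5.12 to 11.7). Gria2, whose subunit makes AMPA receptors nearly impermeable to calcium, was listed at 0 in the culture, against 17.1 FPKM in retina. Gria3 was likewise listed at 0, against 9.58 FPKM. Gria1 therefore held most of the small AMPA signal of the culture, whereas Gria4 and Gria2 led in retina. The main Gria1 transcript of retina carried 70.7% of the gene's level there and 10.2% in mNRPCs, and reads shared by transcripts make such shares less certain than the sum.

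The kainate family had the highest summed level of all families in mNRPCs, at 14.0 FPKM against 37.7 in retina, with 3 of its 5 genes lower. Grik5 encodes a high-affinity subunit that forms channels only together with a subunit from Grik1, Grik2 or Grik3. It was the most abundant receptor gene of mNRPCs, at 13.6 FPKM (an estimated 335 fragments), and was at 20.2 FPKM in retina. That is 1.48-fold lower (1.28 to 1.72), with nearly all of the level on 1 transcript in both libraries (99.0% and 99.9%). The log2 ratio of Grik5 was −0.54 as deposited and −1.05 when both libraries were scaled to an equal total. Only the scaled value passes the 2-fold threshold. Grik1 was at 0.324 and 9.27 FPKM, 28.6-fold lower (14.2 to 67.4), and Grik2 was listed at 0 against 6.63 FPKM. Grik3 was at 0.0130 FPKM in mNRPCs, under 1 estimated fragment, against 1.07 FPKM, at least 21.0-fold lower. Grik4 was low in both, at 0.0963 and 0.519 FPKM. Of the Grik2 level in retina 3.44 FPKM lay on curated transcripts. Curated transcripts carried 0.0909 and 3.51 FPKM of the Grik1 levels and 0.0306 and 0.267 FPKM of the Grik4 levels. On curated transcripts alone Grik1 and Grik4 thus still had the smaller value in mNRPCs, though Grik4 lay between the thresholds on all transcripts (log2 ratio −0.47). The curated levels of Grik1 and Grik4 in mNRPCs were under the limit of 3 fragments (0.127 and 0.0778 FPKM), so no exact fold is given for them. With curated transcripts only, Grik3 no longer passed the threshold (−0.82, against −1.03). The log2 ratio of the family sum was then −0.998, against −1.36. Grik5 thus held 96.9% of the kainate subunit level in mNRPCs and 53.6% in retina.

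The delta receptor gene Grid1, whose product links synapses through cerebellins and neurexins, had 0.456 FPKM in mNRPCs and 4.18 in retina, 9.15-fold lower (5.49 to 16.2). Nearly all of its mNRPC level lay on predicted transcripts, and on curated ones Grid1 was at 8.66e-05 FPKM, far under 1 fragment, against 2.06 FPKM.

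Every NMDA receptor contains the subunit of Grin1, and 2 of the 7 NMDA receptor genes were at least 2-fold lower in mNRPCs, 5 lying between the thresholds. Grin1 had 0.373 FPKM in the culture, which stands for 9.44 estimated fragments, and 16.4 FPKM in retina, 44.1-fold lower (22.9 to 97.3). Grin3a was listed at 0 against 1.10 FPKM. Its log2 ratio was −1.07 on all transcripts, −0.99 on curated ones and −0.82 on the highest transcript row. Only the value on all transcripts passes the threshold. The Grin2 genes, which supply the glutamate-binding subunits, were at no more than 0.401 FPKM in either library. Grin2a was listed at 0 in both, Grin2b and Grin2c were listed at 0 in mNRPCs only (0.394 and 0.401 FPKM in retina), and Grin2d was at 0.172 and 0.0876 FPKM. All or nearly all of the retina level of Grin2b, Grin2c and Grin2d lay on predicted transcripts, and the curated ones of Grin2b and Grin2d were listed at 0 there. Grin3b had 0.407 FPKM in mNRPCs and 0.263 in retina, and the interval of the ratio of retina to mNRPC included 1 (0.145 to 2.31). On curated transcripts alone Grin3b was at 0.406 and 0.116 FPKM. The retina value is under the limit of 3 fragments (0.181 FPKM), so no exact ratio is given. In retina Grin1 stood at 88.0% of the summed NMDA subunit level as listed. A value of 0, as for Grin2a, can be a failed estimate, so this share may be too high.

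Of the 7 metabotropic receptor genes analysed 4 were at least 2-fold lower, and 6 had a listed value of 0 in mNRPCs. The exception was Grm7, at 0.885 FPKM in mNRPCs and 2.51 in retina, 2.84-fold lower (1.72 to 4.80) and between the thresholds on the log2(FPKM + 1) scale (−0.90). With curated transcripts only, Grm7 passed the threshold (−1.21), as most of its mNRPC level lay on predicted transcripts. In retina Grm5, which couples to Gq, was at 3.79 FPKM. The Gi-coupled genes Grm2, Grm4 and Grm8 were at 3.96, 0.941 and 5.63 FPKM, and Grm3 was at 0.256. Predicted transcripts held much of some of these levels, and curated ones carried 0.445 FPKM for Grm4 and 1.82 for Grm8.

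**Figure D2:**
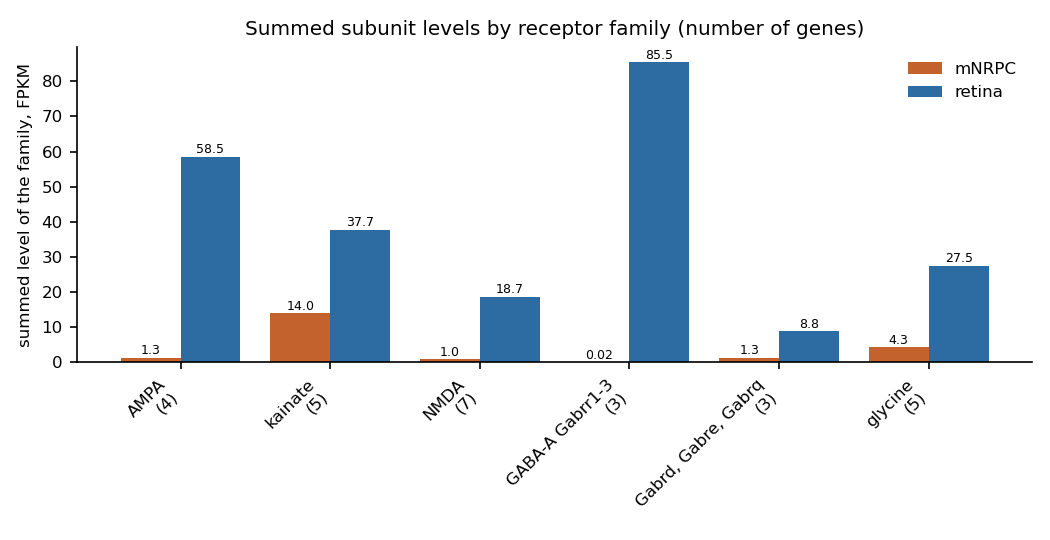
Summed FPKM of the subunit genes of 6 families (number of genes in brackets) in the mNRPC library and the retina library, with 1 library per bar and no error. As a ratio, Gabrr1 to Gabrr3 show the widest gap, at 0.0202 against 85.5 FPKM, and the kainate family the narrowest, at 14.0 against 37.7 FPKM. All 3 Gabrr genes are at or under the limit of 3 fragments in mNRPCs, so the size of the ratio for these genes is not determined.

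Genes of GABA-A receptors were the largest group in retina, with 191 FPKM, 53.4% of the summed receptor level, and came to 9.44 FPKM (30.1%) in mNRPCs. Of these 18 genes 10 were lower, 1 was higher and 7 lay between. The glutamate receptor genes among the 48 made up 39.0% in retina and 56.2% in mNRPCs. The Gabrr genes encode the subunits of the GABA-gated channels long known as GABA-C receptors, which are found mainly on bipolar cell axon terminals. Gabrr2 and Gabrr1 had the highest levels of all 48 genes in retina, at 43.5 and 36.2 FPKM. In mNRPCs Gabrr2 was listed at 0, as was Gabrr3 (5.84 FPKM in retina), and Gabrr1 was at 0.0202 FPKM (an estimated 0.302 fragments), at least 180-fold lower against the limit of 3 fragments.

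Alpha and beta subunits together form the GABA binding site. Gabra2 stood at 5.86 FPKM in mNRPCs against 5.55 FPKM. The ratio of retina to mNRPC was 0.947, with an interval that included 1 (0.770 to 1.16). Its log2 ratio was 0.07 as deposited, −0.04 with trimmed mean scaling and −0.40 with libraries scaled to an equal total, so that its sign depended on the scaling. Gabra3 was at 0.0448 and 4.67 FPKM, at least 37.3-fold lower, and Gabra4 at 0.204 and 2.40 FPKM, 11.8-fold lower (4.72 to 37.8). Gabra5 was listed at 0 against 0.140 FPKM (0.0363 on curated transcripts), and Gabra6 was listed at 0 in both.

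Gabrb2 was listed at 0 against 3.27 FPKM, and Gabrb1 was listed at 0 in both. Gamma subunits help to place GABA-A receptors at synapses. Gabrg1 was at 0.829 and 2.26 FPKM, 2.73-fold lower (1.68 to 4.53), and Gabrg3 at 0.0819 and 1.01 FPKM, 12.4-fold lower (4.96 to 39.7). On the log2(FPKM + 1) scale both lay between the thresholds (−0.83 and −0.90). Gabrd, a subunit of receptors outside synapses, was listed at 0 against 8.64 FPKM, and Gabrq was listed at 0 against 0.186 FPKM, nearly all of it on predicted transcripts.

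Gabre, the epsilon subunit gene, was the 1 member at least 2-fold higher in mNRPCs. Its level there was 1.30 FPKM (an estimated 36.6 fragments), and it was listed at 0 in retina, where 3 fragments would be 0.138 FPKM. Both fragment figures use the length of the curated transcript, as no length was at hand for the predicted ones. Of its 6 transcript rows 5 are predicted, and 1 predicted row carried 91.5% of the mNRPC level. Its curated row was at 3.05e-06 FPKM in mNRPCs, far under 1 fragment, and listed at 0 in retina, so Gabre was no longer higher with curated rows only.

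Glycine receptors combine alpha subunits, which bind glycine, with the beta subunit of Glrb, which anchors the receptor to gephyrin and forms no channel alone. Of these 5 genes 3 were lower. Glrb had 4.32 FPKM in mNRPCs and 19.6 in retina, 4.52-fold lower (3.55 to 5.82). None of the alpha subunit genes was above 0 in mNRPCs. In retina Glra1 was at 2.74 FPKM and Glra2 at 5.18, Glra3 was listed at 0, and Glra4 was at 5.7e-05 FPKM, far under 1 fragment. A pair of predicted transcripts carried 45.3% and 24.0% of the Glra2 level in retina.

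Genes that serve the same synapses were compared with the receptor genes. Of 66 such genes 46 were at least 2-fold lower in mNRPCs and 4 were higher, with a median log2 ratio of −2.22. Over all 31253 genes 13.2% were lower and 10.8% higher. Over the 13780 genes of at least 1 FPKM in a library the shares were 30.0% and 24.5%. Of the 66 genes 64 reached 1 FPKM in retina and 30 in mNRPCs, against 32 and 5 of the 48 receptor genes. The list thus holds mostly genes expressed in retina, and its counts are not directly comparable with those of the receptor genes. Auxiliary subunits, which traffic and gate AMPA, kainate and GABA-A receptors, were lower in 12 of 19 and higher in 1. The higher gene, named after its value was seen, was Neto2, an auxiliary subunit of kainate receptors, at 6.72 and 1.71 FPKM (log2 ratio 1.51). Cacng3, a regulatory partner of AMPA receptors, and Nptx2, a pentraxin that clusters them, were listed at 0 in the culture, against 20.6 and 19.1 FPKM. Cnih2, a cornichon that escorts AMPA receptors, was at 1.42 and 15.7 FPKM (log2 ratio −2.79). Lhfpl4, which places GABA-A receptors at inhibitory synapses, was at 0.490 and 33.3 FPKM (log2 ratio −4.53). Scaffold and anchor genes were lower in 13 of 20, yet 12 of the 20 stayed above 1 FPKM in mNRPCs and their summed level was 483 FPKM against 447, of which Gabarap made up 322 and 94.8 FPKM. Dlg4, the gene of PSD-95, was at 9.67 and 93.4 FPKM (−3.15), and Gphn, the gene of gephyrin, at 10.1 and 23.9 (−1.16). Gabarap, which serves autophagy as well as receptor transport, was higher (1.75).

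Synthesis and packaging genes were lower in 9 of 12 and higher in 2. Slc17a7, the vesicular glutamate transporter of photoreceptors and bipolar cells, had 0.339 FPKM in mNRPCs and 410 in retina (−8.26), and Slc32a1, the vesicular transporter of GABA and glycine, was at 0.0521 and 35.5 FPKM, at least 216-fold lower. Shmt2, a mitochondrial enzyme that makes glycine from serine, was higher, at 77.0 and 18.7 (1.98). Shmt1, its cytosolic counterpart, also named after its value was seen, was higher at 8.98 and 0.663 FPKM (2.59). Uptake genes were lower in 9 of 11. Slc6a11, a GABA transporter, was listed at 0 in the culture, against 51.6 FPKM. Slc1a2, a glutamate transporter, was at 0.207 and 39.4 FPKM (−5.06), and Slc6a6, the taurine transporter, at 43.9 and 247 (−2.47). Of the genes for GABA-B receptors and chloride transport, Gabbr1 was at 3.18 and 31.9 FPKM (−2.98), and Slc12a5, which encodes the chloride extruder KCC2, at 0.226 and 73.5 (−5.92).

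**Figure D3:**
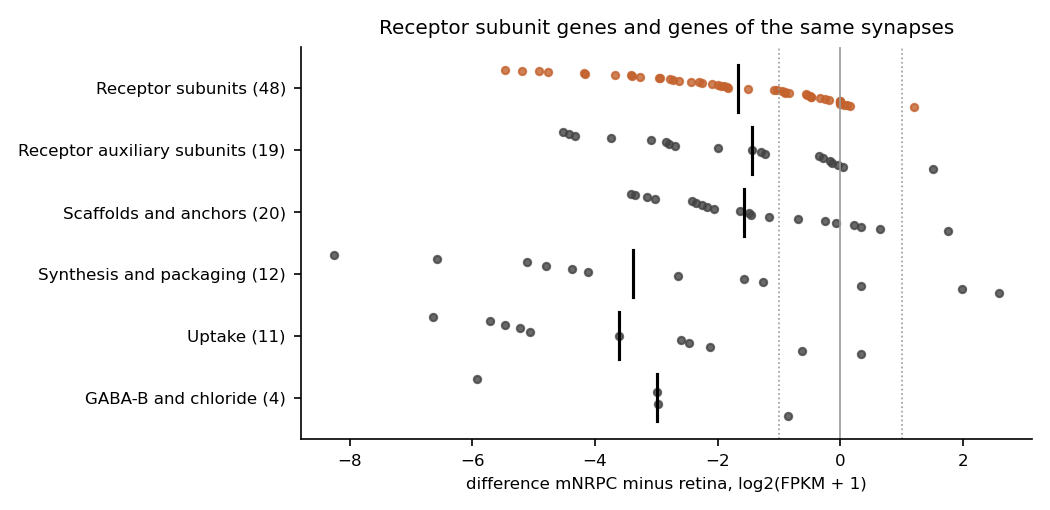
Difference between mNRPC and retina on the log2(FPKM + 1) scale for the 48 receptor subunit genes and for 5 groups of other synaptic genes, 1 point per gene, with black bars at the medians and dotted lines at the 2-fold threshold. Medians lie between −3.61 for uptake genes and −1.44 for auxiliary subunits, with the receptor genes at −1.66.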

How the data were processed

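RNA was sequenced from 1 mNRPC and 1 retina library, and the groups follow the labels. The authors deposited FPKM values for 106754 RefSeq transcripts. The study's methods name Bowtie 2 and eXpress for this unit, and the submitters' processing notes name TopHat2 2.0.10 and build GRCm38.p3. Which of these made the values is not given in the sources used here. If eXpress made them, reads shared by transcripts were divided by estimation, so that values of single transcripts are less certain than sums per gene. A value of 0 can be a failed estimate. Estimates under 1e-06 FPKM were read as 0.

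Accessions without version were matched to RefSeq GRCm38.p6 and then to GENCODE M21 for 69.6% of rows (99.6% of 33511 curated and 55.8% of predicted rows) and summed per symbol. The 48 genes had 170 rows, 71 of them curated, so predicted rows without a match may be missing from a sum. The log2 ratio was log2 of (mNRPC FPKM + 1)/(retina FPKM + 1), and so understates changes of low genes, and a gene counted as lower or higher at 1 on that scale. Depth was estimated from where the lowest FPKM times transcript length gather in genes of 1 transcript of at least 1500 bp. With a minimum of 500 bp the estimates were 6.58e+06 and 4.94e+06 fragments, and with 2500 bp 6.52e+06 and 5.68e+06. Fold intervals are 95% Clopper-Pearson intervals on estimated fragments, and these and the limit of 3 fragments cover counting error only. Predicted rows of the 48 genes had no length, and the median length of the gene's other rows was used in its place. Fragments and intervals are therefore rougher where predicted rows carry much of a level, as for Gabre, Gria4, Grid1, Grik1 and Grm7. A fold against a level at or under 3 fragments is a lower bound against that limit.

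The depth estimate and the 2-fold call were run on simulated data, for genes of 1 transcript with a known length and changes in well expressed genes. The summing of transcripts, the limit of 3 fragments and the fold intervals were not simulated. All steps ran in Python 3.11.15 with pandas 2.3.3 and scipy 1.17.1. The receptor genes were picked by symbol, but this set, the lists of partner and marker genes and the alternatives were chosen with earlier results of these data known. Genes of at least 1 FPKM in a library are named with values, and partner genes of at least 10 FPKM past the 2-fold threshold, at most 4 a group, and some of these genes are not reported here. Single marker genes named were chosen after their values were seen. Alternatives changed the pseudocount, the filter, the scaling, the rows summed and the thresholds.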

Additional observations from a re-analysis of the deposited data

How the results depend on the processing

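The number of lower genes ranged from 26 to 38 over the alternatives at the 2-fold threshold, and was 19 at a 4-fold threshold. The median log2 ratio stayed below 0 and moved to −3.21 with a pseudocount of 0.1. Gabre was the higher gene where 1 was found, and the number was 0 with curated rows only, with accessions matched by version and at the 4-fold threshold. The number of genes detected in mNRPCs was 8 after rescaling to a common sum, with or without rod and cone genes, since rescaling raises every value. It was 15 at a minimum of 0.1 FPKM and 2 at 5 FPKM, and in retina it was 19 at 5 FPKM. Rescaling to a common sum moved the median of genes of at least 1 FPKM from −0.12 to −0.68. Of 264 log2 ratios of 33 single genes, over the 8 alternatives that can move a single gene, 138 stayed within counting error, 126 moved beyond it, and 3 changed sign. The filter at 1 FPKM cannot move them. The latter were all of Gabra2. None of the 96 family sums changed sign. Depth limits the 31 genes at or under 3 fragments in mNRPCs. No paired analysis was possible because a group held 1 library.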
